A study of Mus musculus with 6 samples.

Results

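The clustered Hox genes were followed here in ovarian granulosa cells of mice, the steroid-making support cells of the follicle, in which the oocyte grows. Members were the genes named Hoxa, Hoxb, Hoxc or Hoxd with a number from 1 to 13, taken from probe sets that the platform annotation gives a single gene symbol, and each gene was read from its probe set of highest mean intensity. By this rule 33 of 18193 measured genes were members, 9 in the Hoxa cluster, 9 in Hoxb, 7 in Hoxc and 8 in Hoxd, on 48 probe sets. Clustered Hox genes without such a probe set were not analysed here.

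The study set granulosa cells targeted for loss of the forkhead transcription factors Foxo1 and Foxo3 against wild type cells on 6 arrays, 2 in each of 3 groups. The double knockout (dKO) mice carried 1 floxed and 1 null allele of each of Foxo1 and Foxo3, with Cre recombinase expressed from the Amhr2 locus (Amhr2-cre), and were sampled at 2 months and at day 25 of age. Wild type mice were sampled at day 25 alone, so 2-month mutants have no wild type of their own age here, and wild type is the label's word for mice with no stated Cre. All mice were of a mixed FVB and C57BL/6 background. Amhr2 is a granulosa cell gene, so deletion is directed to cells that express it, while the null allele is carried by every cell. The labels do not say whether the replicates of a group came from separate animals or from pooled ones, so the errors given measure the spread between samples, which may be technical.

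HOX proteins are homeodomain transcription factors that give cells along the body axis a positional identity. Their genes stand in 4 clusters in an order that matches the order in which they are used, from low paralog numbers at the head end to high numbers at the tail end, and genes with the same number in different clusters are paralogs. HOX proteins bind DNA together with PBX, MEIS and PKNOX proteins, Polycomb complexes keep unused parts of a cluster silent, and retinoic acid opens the low-numbered end in the embryo. In the female tract the high-numbered Hoxa genes pattern the oviduct, uterus and vagina. FOXO1 and FOXO3 act downstream of insulin-like growth factor and FSH signals, which send them out of the nucleus.

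The arrays measured intensity, the brightness of a probe set after the authors' RMA normalization, in which 1 number is a level relative to other arrays for the same probe set only. Differences were therefore taken between arrays for the same probe set, and a gene's intensity was set against other probe sets only as a rough scale of detection. Array medians lay between 73 and 74 and upper quartiles between 370 and 383. The deletion showed in Foxo1, which read 126 and 343 in dKO cells at 2 months and 904 and 2291 in dKO cells at day 25, against 10319 and 7666 in wild type cells. Foxo3 was not lower by its probe set, at 2484 and 1872 in dKO cells at 2 months and 2539 and 3279 in dKO cells at day 25, against 1632 and 1342 in wild type cells. Where that probe set lies relative to the deleted exons is not known here, so it checks nothing. One dKO array at 2 months (replicate 1) stood apart, with correlations of 0.964 to 0.978 with the other 5, and the values without it are given where they bear on a result.

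Detection split the family. The median probe set had a mean intensity of 76.5, and 13 Hox genes lay above it: Hoxa3, Hoxa5, Hoxa7 and Hoxa9, Hoxc4, Hoxc5, Hoxc6, Hoxc8 and Hoxc9, and Hoxd3, Hoxd8, Hoxd9 and Hoxd10. The other 20, all 9 Hoxb genes among them, lay at or under it. Probe sets of Y-linked genes served as a scale for no signal: 12 of 13 read between 7 and 28 on every array and one reached 94. On that scale 11 Hox genes never read above 28, and they are Hoxa genes of the low and high ends of the cluster (Hoxa2, Hoxa4, Hoxa10, Hoxa11 and Hoxa13), Hoxb1, Hoxb13, Hoxc13, Hoxd1, Hoxd11 and Hoxd12.

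The start regions of Hoxd8, Hoxd9 and Hoxd3, the Hoxd genes that carry most of the result, are printed beside those of Hoxd13 and Hoxc4. Hoxd13 is of the same cluster, with a log2 difference at day 25 of 0.00 by its brighter probe set and 0.30 by its dimmer one. Hoxc4 stands for the other cluster. Each is a RefSeq window on the GRCm38.p6 build of 300 bases, 250 before the annotated transcript start and 50 after it, written 5′ to 3′ on the gene's own strand, with every CG dinucleotide in capitals. These windows lie in the promoter and the first transcribed bases. CG-rich promoters are the kind on which Polycomb complexes sit.
Hoxd8, chr2:74704365-74704664, plus strand: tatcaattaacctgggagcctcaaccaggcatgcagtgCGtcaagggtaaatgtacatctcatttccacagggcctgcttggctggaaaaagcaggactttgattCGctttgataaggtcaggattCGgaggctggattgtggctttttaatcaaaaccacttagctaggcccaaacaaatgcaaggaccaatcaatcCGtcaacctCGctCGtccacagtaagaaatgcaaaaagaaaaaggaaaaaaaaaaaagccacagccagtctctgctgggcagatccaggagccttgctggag
Hoxd9, chr2:74697513-74697812, plus strand: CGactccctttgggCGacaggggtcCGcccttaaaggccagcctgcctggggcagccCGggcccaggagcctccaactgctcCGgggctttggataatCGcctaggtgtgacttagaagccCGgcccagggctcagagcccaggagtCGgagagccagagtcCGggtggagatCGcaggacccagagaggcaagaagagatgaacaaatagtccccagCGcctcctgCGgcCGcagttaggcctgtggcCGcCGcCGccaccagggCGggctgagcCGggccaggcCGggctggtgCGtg
Hoxd3, chr2:74711743-74712042, plus strand: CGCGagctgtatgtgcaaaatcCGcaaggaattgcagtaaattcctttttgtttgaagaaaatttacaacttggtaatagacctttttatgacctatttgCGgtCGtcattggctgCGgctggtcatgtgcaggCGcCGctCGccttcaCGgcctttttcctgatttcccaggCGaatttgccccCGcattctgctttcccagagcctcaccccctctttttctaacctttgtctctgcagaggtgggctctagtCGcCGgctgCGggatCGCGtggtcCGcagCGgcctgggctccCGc
Hoxd13, chr2:74667975-74668274, plus strand: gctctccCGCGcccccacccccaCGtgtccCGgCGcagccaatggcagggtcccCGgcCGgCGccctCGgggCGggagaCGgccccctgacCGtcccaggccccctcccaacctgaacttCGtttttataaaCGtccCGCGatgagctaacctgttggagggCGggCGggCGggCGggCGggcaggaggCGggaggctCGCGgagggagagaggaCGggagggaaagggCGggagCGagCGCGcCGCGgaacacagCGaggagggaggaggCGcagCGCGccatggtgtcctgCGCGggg
Hoxc4, chr15:103034145-103034444, plus strand: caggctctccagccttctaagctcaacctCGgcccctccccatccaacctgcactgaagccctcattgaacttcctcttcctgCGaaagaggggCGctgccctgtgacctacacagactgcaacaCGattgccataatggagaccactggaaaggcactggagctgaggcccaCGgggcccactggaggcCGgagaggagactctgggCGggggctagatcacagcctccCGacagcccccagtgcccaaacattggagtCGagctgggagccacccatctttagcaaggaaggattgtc
Hoxd13 had 37 CG dinucleotides in its window, Hoxd9 and Hoxd3 had 20 each, Hoxc4 had 9 and Hoxd8 had 6, against a median of 15 over the 21 windows of the 19 Hox genes present in the table and 7 over all 32851 windows. Hoxd8 and Hoxc4 are thus the CG-poor windows of the 5. A FOXO core, GTAAACA on either strand, was in 0 of the 21 Hox windows and in 3.65% of all windows. A composite PBX and HOX word, TGATTNAT on either strand, was in 2 of the 21, in a window of Hoxa2 and one of Hoxd11, and in 3.22% of all windows. These are letter matches in one short window, so a match elsewhere was not looked for and no factor's binding was measured.

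The comparison at day 25 asked how dKO granulosa cells, which still held some Foxo1 signal, differ from wild type cells of the same age. The Hox genes with the larger differences lay in the Hoxd and Hoxc clusters, led by Hoxd8, Hoxc8, Hoxd10 and Hoxd9 at 2.16-fold to 2.77-fold above wild type cells, with Hoxc5, Hoxd3 and Hoxc4 behind them. The Hoxa and Hoxb genes lay within 0.35 of wild type on the log2 scale. None of these differences passed the adjusted threshold of 0.05 (limma, Benjamini-Hochberg over all probe sets), and neither did any of the 18193 genes. Before adjustment, 8 of the 33 members were at p under 0.05, all 8 higher in dKO cells (Hoxa7, Hoxc4, Hoxc5, Hoxc6, Hoxc8, Hoxd3, Hoxd8 and Hoxd9), against 4.89% of all genes higher and 3.44% lower at the same p. All 8 were among the 13 members above the median intensity, and of all genes that bright 5.94% were higher at that p. That line uses the mean over all 6 arrays, so high dKO values help a gene to pass it. By their wild type means Hoxd3 (48), Hoxd10 (43) and Hoxc5 (75.5) lay under it. Counts among the bright members, here and below, are therefore in part set by the selection. Leaving out 1 array at a time gave 4 to 9 members, with 4 without replicate 1 of the dKO cells at day 25 or without either wild type array.

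**Figure D1:**
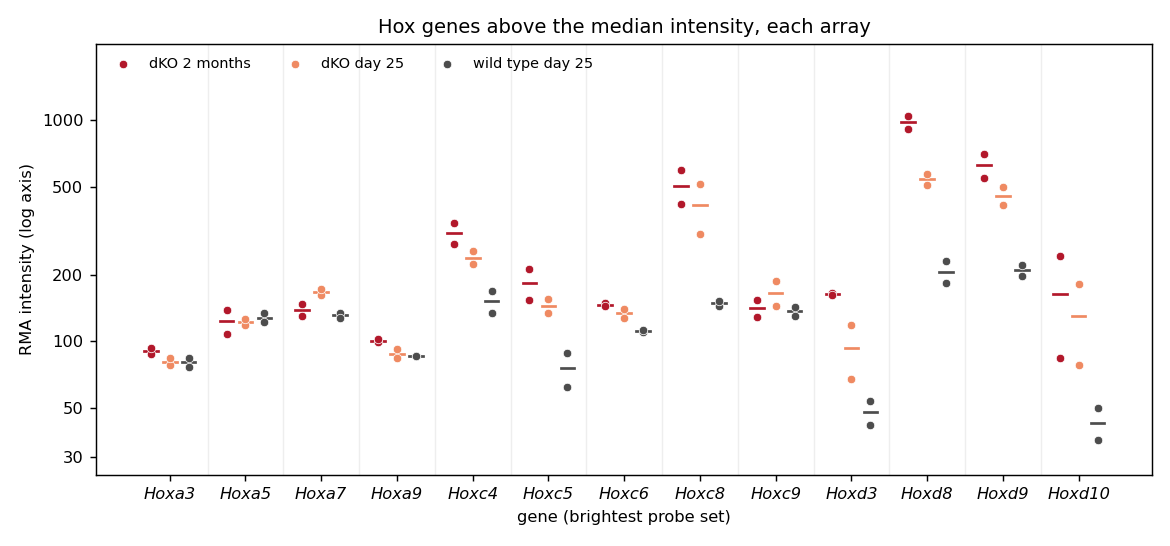
RMA intensity (log axis) of Hox genes named in the text on each of the 6 arrays; points are single arrays, colours are the groups. Hoxd8 lies at 908 to 1046 in dKO cells at 2 months, 509 to 567 in dKO cells at day 25 and 183 to 230 in wild type cells, and its groups do not overlap.

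Hoxd8, a central gene of its cluster, read 567 and 509 in dKO cells at day 25, against 230 and 183 in wild type cells. Both dKO arrays stood more than 2-fold above both wild type arrays. The difference was 1.38 ± 0.16 on the log2 scale (SE), 2.61-fold, with an adjusted p of 0.381, and its p ranked 15 among 18193 genes. A separate Hoxd8 probe set read 287 and 268 in dKO cells, against 86 and 88 in wild type cells, a difference of 3.16-fold with an adjusted p of 0.367. Both probe sets of the gene thus gave the same order of groups.

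Hoxd9, the next gene toward the tail end of the cluster, read 496 and 414 in dKO cells at day 25, against 222 and 197 in wild type cells. Its groups did not overlap, and the log2 difference was 1.11 ± 0.17 (2.16-fold, adjusted p 0.461). Hoxd3, a paralog of Hoxa3 and Hoxb3 from the low-numbered end, read 118 and 68 in dKO cells, against 42 and 54 in wild type cells. The dKO arrays spread widely, though both lay above both wild type arrays, and the log2 difference was 0.90 ± 0.29 (1.86-fold, adjusted p 0.566). Hoxd10, which in the mouse embryo acts in limb and lumbar spinal cord, read 182 and 78 in dKO cells, against 50 and 36 in wild type cells. Its log2 difference of 1.47 ± 0.65 (2.77-fold, adjusted p 0.644) came with a far wider SE than that of Hoxd8. The remaining Hoxd genes were dim, and Hoxd13 read 31 and 32 in dKO cells and 31 and 32 in wild type cells. The dimmer Hoxd13 probe set read 29 and 37 in dKO cells, against 26 and 27 in wild type cells (1.23-fold). Hoxd1, Hoxd11 and Hoxd12 lay between 11 and 27 on these 4 arrays.

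Hoxc8, which patterns the thoracic skeleton in the mouse, read 516 and 306 in dKO cells at day 25, against 145 and 152 in wild type cells. The groups were far apart but the dKO arrays spread widely, and the log2 difference was 1.41 ± 0.31 (2.67-fold, adjusted p 0.480). Hoxc5 read 155 and 134 in dKO cells, against 89 and 62 in wild type cells, a log2 difference of 0.95 ± 0.25 (1.93-fold, adjusted p 0.521). The other Hoxc5 probe sets showed smaller differences, 0.25 and 0.19 on the log2 scale, at intensities of 64 or less. Hoxc4, the last gene of the cluster at the low-numbered end, read 255 and 223 in dKO cells, against 135 and 169 in wild type cells, a log2 difference of 0.66 ± 0.18 (1.57-fold, adjusted p 0.533).

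Hoxc6 read 140 and 128 in dKO cells at day 25, against 110 and 112 in wild type cells, a small but separated difference of 0.27 ± 0.10 (1.20-fold, adjusted p 0.598). Of its other probe sets, one overlapped between the groups (124 and 103, against 81 and 111). The other did not (115 and 104, against 84 and 91). Hoxc9 read 188 and 144 in dKO cells, against 130 and 143 in wild type cells, and its lower dKO array lay 1 unit above the higher wild type array. Hoxc10, a tail-end gene, rested on a single array: it read 226 and 41 in dKO cells, against 43 and 36 in wild type cells. Hoxc13, a hair follicle gene, lay between 18 and 24 on these arrays.

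Of the Hoxa genes, Hoxa7 read 162 and 172 in dKO cells at day 25, against 135 and 127 in wild type cells, a log2 difference of 0.35 ± 0.11 (1.27-fold, adjusted p 0.564). It was the only Hoxa gene at unadjusted p under 0.05. Hoxa5 read 119 and 126 in dKO cells, against 122 and 134 in wild type cells. Hoxa3 read 78 and 84 in dKO cells and 77 and 84 in wild type cells, and Hoxa9 read 84 and 92 in dKO cells and 86 and 86 in wild type cells. These 3 overlapped between the groups. Hoxa10, Hoxa11 and Hoxa13, the genes that pattern the uterus and vagina, stayed within 11 to 22 in both groups.

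No Hoxb gene passed p under 0.05 before adjustment at day 25. Hoxb9 read 77 and 68 in dKO cells and 73 and 65 in wild type cells, and Hoxb4 read 67 and 65 in dKO cells and 62 and 62 in wild type cells. Hoxb3 gave opposite directions by probe set. Its brighter one read 58 and 62 in dKO cells and 57 and 68 in wild type cells, while the dimmer one read 40 and 42 in dKO cells and 22 and 27 in wild type cells, 1.65-fold higher with an adjusted p of 0.622. Above 2-fold there were 5 members (Hoxc8, Hoxc10, Hoxd8, Hoxd9 and Hoxd10), against 2.9% of all genes. Of all 33 members, 25 had a higher mean in dKO cells, 7 a lower one and 1 an equal one, where 54.7% of all genes had a higher mean. The arrays of the groups did not overlap for 15 members higher and 1 lower (Hoxb2), against 26.4% of all genes higher and 19.5% lower.

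Because granulosa cell preparations can hold other ovarian cells, the markers of those cells were read on the same arrays. Markers of stroma and smooth muscle had a higher mean in dKO cells at day 25 for 12 of 13 genes, with a median log2 difference of 0.44, and their intensities summed to 31056 and 38266 in dKO cells, against 26108 and 18451 in wild type cells. Endothelial markers were higher for 10 of 10 (sums of 1186 and 1766 in dKO cells, against 925 and 1141 in wild type cells), leukocyte markers for 11 of 12 (7842 and 4433, against 1601 and 3245) and oocyte markers for 11 of 11 (41027 and 60614, against 28833 and 17231). Granulosa markers were higher for 6 of 10, with sums of 96736 and 90731 in dKO cells and 94140 and 98689 in wild type cells. The lowest single value was 12 among leukocyte markers (Itgam) and 24 among endothelial markers (Tie1), in the range of the Y-linked probe sets. It was 34 for oocyte (Sohlh1), 111 for stromal (Des) and 433 for granulosa markers (Nr5a1). The part of these cells in the Hox differences was not tested. In such bulk samples, fewer cells of a type and less RNA per cell cannot be told apart.

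The Hox and marker medians were also read array by array. Relative to the mean of the 6 arrays, the median Hoxc gene stood at 0.20 and 0.15 in dKO cells at 2 months and 0.31 and -0.01 in dKO cells at day 25, against -0.39 and -0.40 in wild type cells, on the log2 scale. The median Hoxd gene stood at 0.05 and 0.53 in dKO cells at 2 months and 0.30 and 0.04 in dKO cells at day 25, against -0.50 and -0.47 in wild type cells. The median leukocyte marker stood at 1.64 and -0.03 in dKO cells at 2 months and 0.30 and -0.22 in dKO cells at day 25, against -1.36 and -0.51 in wild type cells. The median stromal marker stood at 0.70 and -0.08 in dKO cells at 2 months and 0.02 and 0.37 in dKO cells at day 25, against -0.22 and -0.69 in wild type cells. The median endothelial marker stood at 1.14 and 0.19 in dKO cells at 2 months and -0.32 and 0.13 in dKO cells at day 25, against -0.78 and -0.37 in wild type cells. The wild type arrays were the lowest pair for both Hox clusters and for stroma, leukocytes and endothelium. They were not for granulosa, surface epithelium, theca and oocyte markers. Replicate 1 of the dKO cells at 2 months, the highest array for leukocyte, stromal and endothelial markers, was also the highest of the 6 for Hoxc4, Hoxc5, Hoxc6, Hoxc8, Hoxd3 and Hoxd8, and for the Hoxb median (0.24), while the Hoxc and Hoxd medians were highest on other arrays.

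**Figure D2:**
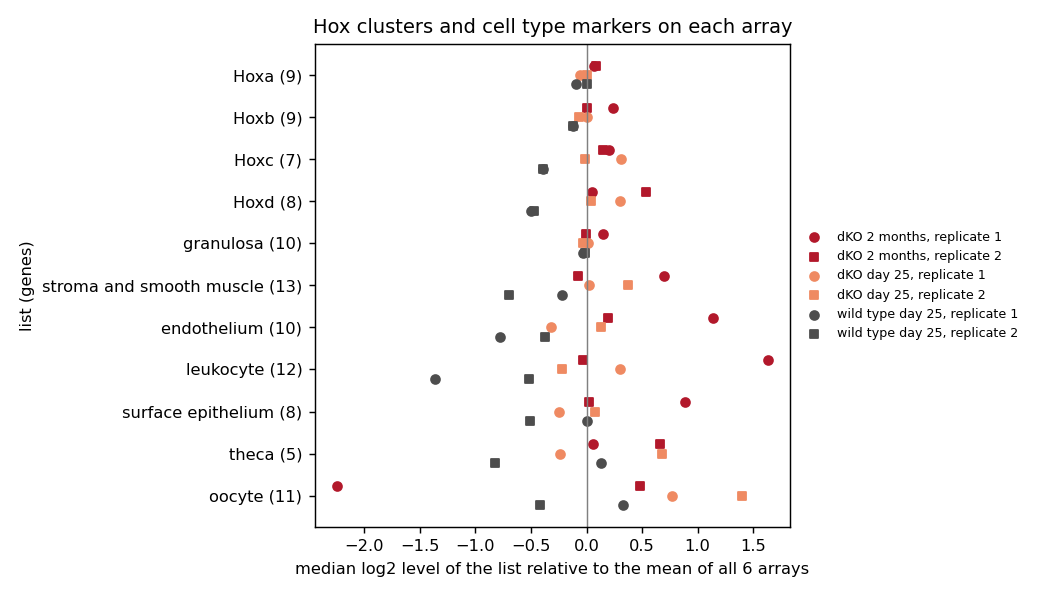
Median log2 level of each Hox cluster and of each cell type marker list on the 6 arrays, relative to the mean of the 6 arrays (x axis), with circles for replicate 1 and squares for replicate 2 and colours for the groups. The Hoxc and Hoxd medians lie at -0.39 to -0.50 in both wild type arrays and at -0.01 or above in the 4 dKO arrays, and the leukocyte median reaches 1.64 in 1 dKO array at 2 months.

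With age, dKO cells at 2 months were set against dKO cells at day 25, which share the genotype. Foxo1 itself read 126 and 343 at 2 months, against 904 and 2291 at day 25. The ages thus also differ in the Foxo1 signal that remained, and the 2 cannot be told apart. Hoxd8 was 1.81-fold and Hoxd3 1.82-fold higher at 2 months, Hoxd9 was 1.37-fold higher, and the Hoxc genes other than Hoxc10 lay between -0.23 and 0.36 on the log2 scale. Before adjustment 5 of the 33 members were at p under 0.05, all higher at 2 months (Hoxa13, Hoxb2, Hoxd3, Hoxd8 and Hoxd9), against 3.73% of all genes higher and 2.91% lower. None passed adjustment (limma, smallest adjusted p 0.712), nor did any of the 18193 genes. Of the 13 members above the median intensity 3 were at that p, against 3.71% of all genes that bright, and 0 members were above 2-fold, where 1.18% of all genes were. Higher means at 2 months were found for 21 of 33 members and 52.8% of all genes. The count of 5 was 2 to 5 when single arrays were left out and 1 with a replicate block, and its direction was not uniform: it was 2 higher and 1 lower without replicate 1 of the dKO cells at day 25, and 1 higher and 2 lower without replicate 2. The arrays of the groups did not overlap for 13 members higher and 1 lower (Hoxa7), against 19.7% of all genes higher and 17% lower.

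Hoxd8 read 1046 and 908 in dKO cells at 2 months, against 567 and 509 at day 25, a log2 difference of 0.86 ± 0.16 with an adjusted p of 0.712, and its p ranked 55 among 18193 genes. Hoxd3 read 166 and 162 at 2 months, against 118 and 68 at day 25, a log2 difference of 0.86 ± 0.29 (adjusted p 0.712). Hoxd9 read 549 and 698 at 2 months, against 496 and 414 at day 25, a log2 difference of 0.45 ± 0.17 (adjusted p 0.712). These Hoxd genes did not overlap between the ages, whereas Hoxd10 did, at 84 and 242 at 2 months and 182 and 78 at day 25.

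Hoxc8 read 591 and 415 in dKO cells at 2 months, against 516 and 306 at day 25, and overlapped between the ages. Hoxc4 read 341 and 275 at 2 months, against 255 and 223 at day 25, a log2 difference of 0.36 ± 0.18 (adjusted p 0.712). Hoxa7 ran the other way, at 130 and 147 at 2 months, against 162 and 172 at day 25, a log2 difference of -0.27 ± 0.11 (adjusted p 0.712). Hoxb2 read 56 and 50 at 2 months, against 43 and 44 at day 25, and Hoxa13 read 23 and 22 at 2 months, against 19 and 18 at day 25, within the range of the Y-linked probe sets. Endothelial markers were higher at 2 months for 10 of 10 genes and leukocyte markers for 12 of 12, while oocyte markers were lower for 11 of 11. Surface epithelium markers were higher for 7 of 8, with a median log2 difference of 0.56. Of the 5 measured theca markers 2 were higher and 3 lower, with a median of -0.09. Their intensities still summed to 15986 and 18115 at 2 months, against 2839 and 8245 at day 25, since a sum weighs the brightest genes most. Stromal markers were higher for 9 of 13. The part of these cells in the Hox values was not tested.

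Set against wild type cells at day 25, dKO cells at 2 months showed the widest differences of the family, though age and genotype cannot be told apart in this comparison and it shares arrays with both others. Hoxd8 was 4.73-fold higher, Hoxd3 3.39-fold, Hoxc8 3.32-fold, Hoxd10 3.31-fold, Hoxd9 2.95-fold, Hoxc5 2.41-fold and Hoxc4 2.02-fold. These 7 were the members above 2-fold, where 3.63% of all genes were, though the other Hoxc5 probe sets gave 1.41-fold and 1.29-fold. At unadjusted p under 0.05 there were 9 members, all higher (these 7, Hoxc6 and Hoxb6), against 9.54% of all genes higher and 5.38% lower. No member passed adjustment (limma), and none of the 18193 genes did. Of the 13 members above the median intensity 8 were at that p, against 10.8% of all genes that bright. Some of the 13, Hoxc5, Hoxd3 and Hoxd10, passed that line only through their dKO arrays. Means were higher for 28 of 33 members and 55% of all genes. Groups did not overlap for 20 members, all higher, against 26.6% of all genes higher and 17.3% lower.

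Hoxd8 differed by 2.24 ± 0.16 on the log2 scale with an adjusted p of 0.123, and its p ranked 7 among 18193 genes. Its other probe set read 452 and 444 in dKO cells at 2 months, against 86 and 88 in wild type cells, 5.10-fold with an adjusted p of 0.114. Hoxd9 differed by 1.56 ± 0.17 (adjusted p 0.139), Hoxd3 by 1.76 ± 0.29 (adjusted p 0.203) and Hoxd10 by 1.73 ± 0.65 (adjusted p 0.374). Hoxc8 differed by 1.73 ± 0.31 (adjusted p 0.215), Hoxc5 by 1.27 ± 0.25 (adjusted p 0.235), Hoxc4 by 1.01 ± 0.18 (adjusted p 0.215) and Hoxc6 by 0.40 ± 0.10 (adjusted p 0.280). Hoxc6 read 149 and 144 in dKO cells at 2 months, against 110 and 112 in wild type cells. Its other probe sets gave larger differences with wider spread. They were 1.61-fold (187 and 126, against 81 and 111) and 1.73-fold (193 and 119, against 84 and 91).

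Hoxb6, the lone Hoxb gene in that count, read 31 and 21 in dKO cells at 2 months, against 13 and 17 in wild type cells, near the Y-linked range (log2 difference 0.74 ± 0.23, adjusted p 0.338). The dimmer Hoxb3 probe set read 78 and 44 in dKO cells at 2 months, against 22 and 27 in wild type cells (2.35-fold, adjusted p 0.268), where the brighter one read 74 and 63, against 57 and 68. No Hoxa gene was at unadjusted p under 0.05. Hoxa9 read 99 and 102 in dKO cells at 2 months, against 86 and 86 in wild type cells, Hoxa3 read 88 and 93, against 77 and 84, and Hoxa5 read 108 and 138, against 122 and 134.

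Endothelial markers were higher in dKO cells at 2 months for 10 of 10 genes, 9 of them at unadjusted p under 0.05, with a median log2 difference of 1.37, and leukocyte markers for 12 of 12 with a median of 1.77. Stromal markers were higher for 11 of 13 with a median of 0.91. Their sums were largest in replicate 1 of the dKO cells at 2 months, at 3739 for endothelium, 15438 for leukocytes and 52304 for stroma, against 1850, 4990 and 28097 in replicate 2. Without that array the log2 differences were 2.14 for Hoxd8, 1.73 for Hoxd9, 1.74 for Hoxd3, 1.48 for Hoxc8, 1.03 for Hoxc5 and 0.86 for Hoxc4. Without replicate 2 in its place they were 2.34 for Hoxd8, 1.39 for Hoxd9, 1.78 for Hoxd3, 1.99 for Hoxc8, 1.51 for Hoxc5 and 1.17 for Hoxc4. Of these genes Hoxc8, Hoxc5, Hoxc4, Hoxd8 and Hoxd3 thus differed more with the array richest in those markers, and Hoxd9 less. The other Hoxc genes were mixed on replicates 1 and 2. Hoxc9 read 153 and 129, Hoxc6 149 and 144, Hoxc13 22 and 22, and Hoxc10 45 and 51. The other Hoxc6 probe sets were clearly higher on replicate 1, at 187 and 126, and at 193 and 119. The part of the marked cells in these values was not tested. Hoxd10 depended most on the array, at 2.48 without replicate 1 and 0.97 without replicate 2.

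By cluster, the median log2 difference between dKO and wild type cells at day 25 was -0.04 for Hoxa, 0.07 for Hoxb, 0.66 for Hoxc and 0.69 for Hoxd, beside 0.03 for all genes. The Hoxc median was 0.20 without replicate 1 of the dKO cells at day 25. Between dKO cells at 2 months and at day 25 it was 0.00 for Hoxa, 0.18 for Hoxb, 0.13 for Hoxc and 0.17 for Hoxd, beside 0.02 for all genes. These small medians turned with single arrays, to -0.0591 for Hoxc without replicate 2 of the dKO cells at day 25 and to -0.0331 for Hoxd without replicate 2 of those at 2 months. Between dKO cells at 2 months and wild type cells it was 0.08 for Hoxa, 0.20 for Hoxb, 0.40 for Hoxc and 0.89 for Hoxd, beside 0.04. The Hoxd median there was 0.59 without replicate 2 of the dKO cells at 2 months. Among paralog positions, the 9 genes numbered 5 to 8 had medians of 0.35, 0.27 and 0.40 in the 3 comparisons, the 10 genes numbered 1 to 4 had 0.01, 0.19 and 0.15, and the 14 genes numbered 9 to 13 had 0.15, 0.00 and 0.18. Paralogs of one number moved together in some cases and not in others. At day 25 the measured paralogs of number 8, Hoxc8 and Hoxd8, were both higher in dKO cells, by 1.41 and 1.38 on the log2 scale. By contrast Hoxd9 was 2.16-fold higher at day 25, while Hoxa9, Hoxb9 and Hoxc9 differed by 0.03, 0.07 and 0.27 on the log2 scale. Hoxd3 was 1.86-fold higher, while Hoxa3 and the brighter Hoxb3 probe set differed by 0.01 and -0.05. Whether the clusters differ from each other was not tested.

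**Figure D3:**
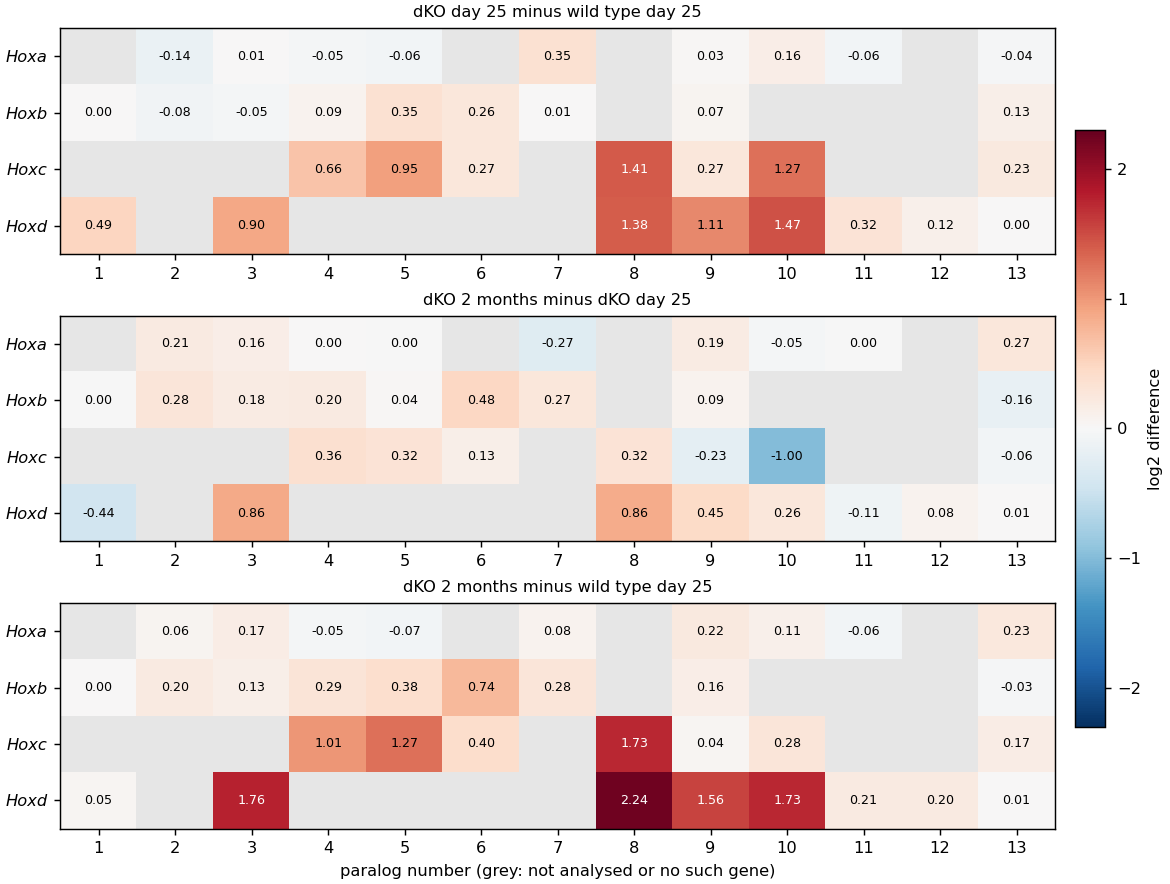
Log2 difference of each measured Hox gene by cluster (rows) and paralog number (columns), in 3 panels for the 3 comparisons; grey cells hold no gene or one not analysed. The strong colours lie in the Hoxc and Hoxd rows, with Hoxd8 at 1.38, 0.86 and 2.24, while no gene of the Hoxa and Hoxb rows goes above 0.74 (Hoxb6).

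The Hoxc cluster lies on the same chromosome as Amhr2, the locus that carries Cre, with 8 protein-coding genes between Amhr2 and Hoxc13, the nearest Hoxc gene, so those genes were read as well. At day 25 none of the 8 was at unadjusted p under 0.05 between dKO and wild type cells. Of all genes 4.89% were higher and 3.44% lower at that p, so none among so few genes is near those shares. The median log2 difference of the 8 was 0.18. Between dKO cells at 2 months and wild type cells, Prr13 was higher by 0.72 and Pcbp2, an RNA-binding protein gene, lower (-0.25) on the log2 scale at unadjusted p under 0.05. In that comparison 9.54% of all genes were higher and 5.38% lower. In order of distance from Amhr2, the day 25 log2 differences of the measured Hoxc genes were 0.23 for Hoxc13, which lay in the range of the Y-linked probe sets, 1.27 for Hoxc10, which rested on 1 array, 0.27 for Hoxc9, 1.41 for Hoxc8, 0.27 for Hoxc6, 0.95 for Hoxc5 and 0.66 for Hoxc4. An effect of the Amhr2-cre locus on the Hoxc genes was not tested. Amhr2, the receptor for anti-Müllerian hormone, read 12185 and 9436 in dKO cells at 2 months and 9102 and 8943 in dKO cells at day 25, against 11809 and 12482 in wild type cells, a day 25 difference of -0.43 ± 0.15 (adjusted p 0.584).

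The genes flanking each cluster gave a further comparison. Of the 10 nearest measured genes around Hoxd, log2 differences between dKO and wild type cells at day 25 ran from -0.46 to 0.27 with 0 at unadjusted p under 0.05 (limma, 0 after adjustment). Among all genes 4.89% were higher and 3.44% lower at that p, so 0 of 10, here and below, is near those shares. Evx2, which abuts Hoxd13, read 39 and 43 in dKO cells at day 25, against 39 and 41 in wild type cells, and Mtx2, beyond the low-numbered end, read 934 and 1005, against 1065 and 1071. Around Hoxc the 10 ran from -0.18 to 0.35, also with 0 at unadjusted p under 0.05. Hoxd3, Hoxd8, Hoxd9 and Hoxd10 in one cluster, and Hoxc4, Hoxc5 and Hoxc8 in the other, lay above the highest of their measured neighbours. So did Hoxc10, which rested on 1 array, and the dim Hoxd1 (0.49) and Hoxd11 (0.32). The rest, Hoxc6, Hoxc9, Hoxc13, Hoxd12 and Hoxd13, lay within the range of their neighbours, though the dimmer Hoxd13 probe set (0.30) lay just above it. Around Hoxa, Evx1 read 203 and 352 in dKO cells at day 25, against 167 and 90 in wild type cells, and Jazf1, a zinc finger gene, was higher by 1.02 on the log2 scale at unadjusted p under 0.05. Both lie on the same side of the Hoxa cluster. Around Hoxb the 10 ran from -0.23 to 1.09, with 0 at unadjusted p under 0.05. The highest of them, Skap1, read 146 and 191 in dKO cells at day 25, against 98 and 62 in wild type cells.

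**Figure D4:**
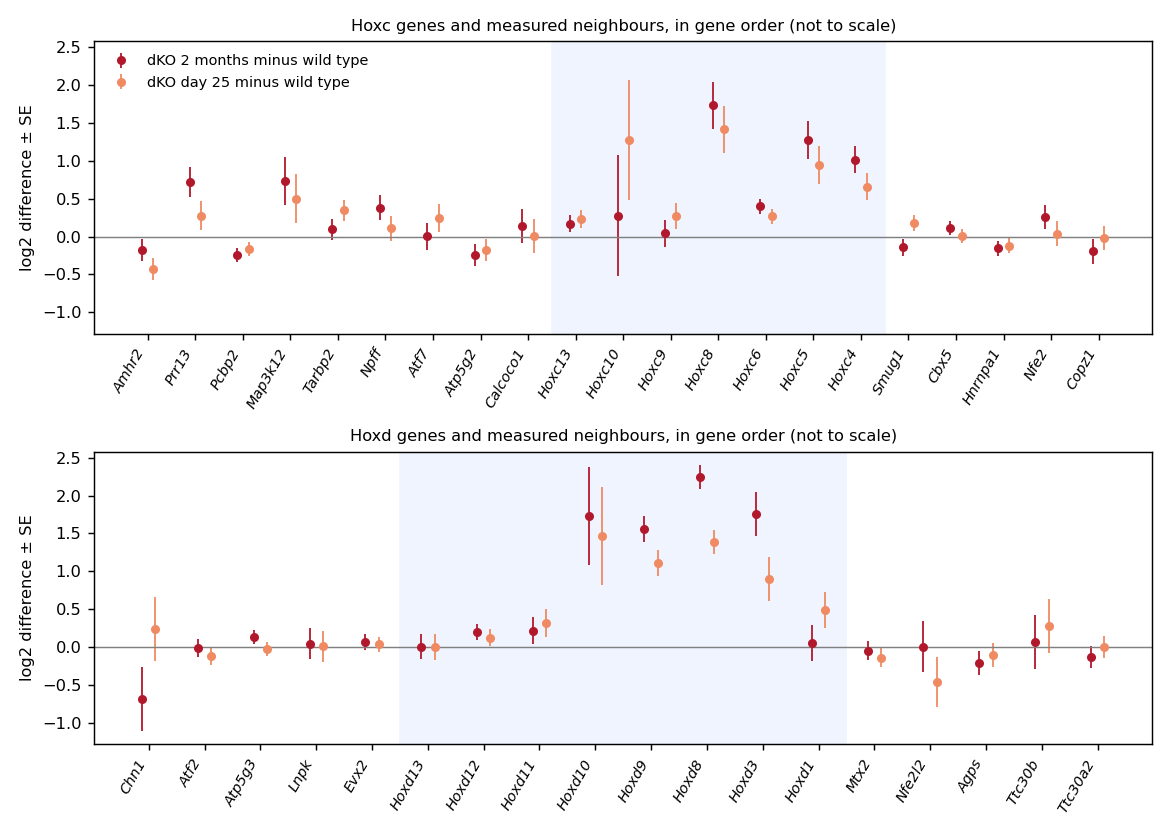
Log2 difference ± SE of the Hoxc and Hoxd genes and their measured neighbours in gene order (not to scale), for dKO day 25 against wild type and dKO 2 months against wild type. Within the Hoxd row at day 25, Hoxd3, Hoxd8, Hoxd9 and Hoxd10 stand between 0.90 and 1.47, while the 10 flanking genes lie between -0.46 and 0.27. At 2 months these Hoxd genes stand between 1.56 and 2.24, and the flanking genes between -0.68 and 0.13.

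The partners of HOX proteins on DNA were read next. Of 9 listed TALE cofactors (PBX, MEIS and PKNOX genes) 8 were measured, and at day 25 1 was higher and 1 lower in dKO cells at unadjusted p under 0.05 (limma, 0 after adjustment), beside 4.89% of all genes higher and 3.44% lower. Pbx2 read 993 and 967 in dKO cells, against 672 and 842 in wild type cells, and Pknox1 read 537 and 506, against 677 and 877. Meis2 split within the groups, at 978 and 998 in dKO cells and 986 and 383 in wild type cells.

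Polycomb genes, whose products hold Hox clusters silent, were measured for 26 of 28. At day 25, 2 were higher and 2 lower in dKO cells at unadjusted p under 0.05 (limma, 0 after adjustment), beside the same shares of all genes, 4.89% and 3.44%. Phf1, an accessory subunit of the methylating complex, read 428 and 599 in dKO cells, against 328 and 260 in wild type cells, and Pcgf1, a subunit of a variant ubiquitylating complex, read 1302 and 1462, against 663 and 524. Mtf2, which recruits the methylating complex to CG-rich DNA, read 797 and 721, against 1150 and 897, and Pcgf5 read 204 and 183, against 538 and 258. The core subunits differed little: Ezh2, the methyltransferase, read 2061 and 2432 in dKO cells, against 2084 and 1858 in wild type cells, and Suz12 read 1673 and 1566, against 1751 and 1625. With age, Cbx2 and Pcgf1 were lower in dKO cells at 2 months than at day 25, by -0.78 and -1.24 on the log2 scale at unadjusted p under 0.05. Of the trithorax group and the H3K27 demethylases, which oppose Polycomb, 10 of 11 were measured and Kdm6b alone was at unadjusted p under 0.05 at day 25, higher in dKO cells by 0.30.

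Retinoic acid, which acts on Hox genes through RAR receptors, is made by ALDH1A enzymes, and 16 of 18 listed genes of this pathway were measured. At day 25, 3 were higher and 1 lower in dKO cells at unadjusted p under 0.05, beside 4.89% and 3.44% of all genes. Between dKO cells at 2 months and wild type cells 4 were higher and 1 lower, beside 9.54% and 5.38% of all genes, with 0 after adjustment in both (limma). Aldh1a1 read 13637 and 12440 in dKO cells at 2 months and 7153 and 9409 in dKO cells at day 25, against 3557 and 5359 in wild type cells. Aldh1a2 read 651 and 539 in dKO cells at 2 months and 385 and 506 in dKO cells at day 25, against 246 and 293 in wild type cells. The order of groups for Aldh1a1 and Aldh1a2 was that of Hoxd8. Aldh1a3, of the same enzyme family, differed from wild type cells by -0.08 at day 25 and -0.03 at 2 months on the log2 scale. Over the pathway, 8 genes had a higher mean and 8 a lower one in dKO cells at day 25. A link of these genes to the Hox values was not tested. The receptor gene Rarg ran the other way, at 230 and 216 in dKO cells at 2 months and 234 and 263 in dKO cells at day 25, against 497 and 405 in wild type cells. The other RAR genes did not. Rara read 92 and 86 in dKO cells at 2 months, against 73 and 76 in wild type cells. Rarb read 26 and 23, against 18 and 17, in the range of the Y-linked probe sets. Cyp26a1 and Cyp26b1, which degrade retinoic acid, stayed at 58 or less on every array. The Cdx genes, which activate Hox clusters in the embryo, stayed at 50 or less.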

How the data were processed

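Total RNA of ovarian granulosa cells was hybridised to 6 Affymetrix mouse arrays. The deposited values are linear RMA intensities in whole numbers, and the affy package and RMA are named per the submitters' processing notes, without versions. A genome build is not given in the sources used here. Arrays carry no read depth, so their number limits the precision.

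Control probe sets (64 of 45101) were left out. The other 45037 were taken as log2(value + 1) and fitted together on all 6 arrays with limma 3.58.1 in R 4.3.3, 1 mean per group and 3 residual degrees of freedom, by a two-sided moderated test with Benjamini-Hochberg adjustment over all probe sets and a threshold of 0.05. An exact permutation test of 2 arrays against 2 cannot go below a p of 0.333. Fold changes are on the log2(value + 1) scale, which understates those of dim genes. Of these probe sets 34945 had 1 gene symbol, 932 several and 9160 none in GEO's platform annotation, which can be old, and 3 Hox probe sets with several symbols were left out. Each gene was read from its probe set of highest mean.

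Named members were those at unadjusted p under 0.05 in any comparison, those above the median intensity and those whose probe sets disagreed; the rest are given by range and count. Other genes came from lists of TALE cofactors, Polycomb, trithorax, retinoid, Cdx and Evx genes, cluster neighbours and cell type markers. The members and lists were chosen with earlier results of these data known. Promoter windows and gene order came from RefSeq tables of GRCm38.p6. The fit was tested on simulated data. There were 10 alternative settings besides leaving out each of the 6 arrays in turn.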

Additional observations from a re-analysis of the deposited data

How the results depend on the processing

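With 2 arrays a group and 3 residual degrees of freedom the design limits every call, and no alternative brought a Hox gene past the adjusted threshold (smallest adjusted p 0.0773, Hoxd8 in dKO cells at 2 months against wild type cells, without replicate 2 of those dKO cells). Replicate numbers did not pair the samples: the correlations of same-numbered deviations were -0.208 and -0.159 for dKO cells at 2 months and at day 25 with wild type cells, and 0.0569 between the dKO groups. A replicate block gave 6, 1 and 8 members at unadjusted p under 0.05 for dKO day 25 against wild type, dKO 2 months against dKO day 25 and dKO 2 months against wild type, where 8, 5 and 9 were reported. Crossed numbers, added after the data were seen, gave 8, 4 and 8. Leaving out 1 array at a time gave 4 to 9, 2 to 5 and 7 to 11.

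The count of 5 between the dKO ages was 3 with arrays centred on their median, with quantile normalization repeated or with an intensity trend and robust prior, and 2 with dim probe sets left out or with only the 4 arrays compared. With dim probe sets left out, which leaves no Hoxb gene, the cluster medians were 0.0203 and 0.0772 for Hoxa at day 25 and between the ages, 0.32 and 1.01 for Hoxc between the ages and at 2 months against wild type, and 1.25, 0.65 and 1.74 for Hoxd. Of the genes then left, Hoxc5, Hoxd3 and Hoxd10 lay under the median intensity in wild type cells, so these medians are in part set by the selection. With the mean of all probe sets the cluster medians were 0.0875 for Hoxa between the ages, and 0.46 and 0.62 for Hoxc at day 25 and at 2 months against wild type. Without _s_at and _x_at probe sets the Hoxa median between the ages was 0.16. Leaving out single arrays gave Hoxa medians of -0.103 to 0.0370, 0.00 to 0.103 and 0.0535 to 0.158 in the 3 comparisons, a Hoxb median of 0.0510 to 0.332 between the ages, Hoxc medians of 0.204 to 0.752 at day 25 and -0.0591 to 0.220 between the ages, and Hoxd medians of -0.0331 to 0.424 between the ages and 0.590 to 0.985 at 2 months against wild type.

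Some directions turned. Hoxa3 at day 25 was -0.000493 with centred arrays and -0.000756 with repeated quantile normalization, and -0.0528 to 0.0712 without single arrays. Hoxa5 between the ages was 0.00799 with repeated quantile normalization, 0.0875 with the mean of all probe sets and 0.179 without _s_at and _x_at probe sets, and at 2 months against wild type it was 0.0430 and 0.152 with the last pair of settings. Without single arrays Hoxa5 ran from -0.129 to 0.00527, -0.180 to 0.171 and -0.241 to 0.109 in the 3 comparisons. At day 25 Hoxa9 ran from -0.0336 to 0.0962 and Hoxa13 from -0.107 to 0.0370. Between the ages Hoxc8 ran from -0.0591 to 0.693 and Hoxd10 from -0.500 to 1.02. At 2 months against wild type Hoxa7 ran from -0.0103 to 0.166 and Hoxc9 from -0.0793 to 0.165. The cause was not tested for any of these.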

Other observations

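One long noncoding transcript of the Hoxd cluster, singled out after its values were seen, ordered the groups as Hoxd8 did. A probe set annotated to Hoxd3os1, an antisense transcript beside Hoxd3, read 475 and 258 in dKO cells at 2 months and 299 and 175 in dKO cells at day 25, against 57 and 61 in wild type cells. The difference between dKO and wild type cells at day 25 was 1.94 ± 0.39 on the log2 scale (3.83-fold, adjusted p 0.474, limma), and that between dKO cells at 2 months and wild type cells was 2.55 (adjusted p 0.180). Another probe set given the same symbol stayed at 12 to 16 on every array. Hoxb5os, antisense to a Hoxb gene, read 105 and 79 in dKO cells at 2 months and 85 and 73 in dKO cells at day 25, against 84 and 100 in wild type cells. Whether the Hoxd3os1 probe set reads the antisense strand alone was not tested.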
